A study of Ovis aries with 27 samples.

Results

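The matrix metalloproteinase (MMP) and tissue inhibitor (TIMP) group described here holds 6 genes, the proteases MMP2, MMP9 and MMP14 and the inhibitors TIMP1, TIMP2 and TIMP3. They were found on a sheep microarray by the gene name, RefSeq accession or description given for each spot, and were represented by 12 of the 15008 probes. The array carried 965 genes that could be named in this way, of which 804 had a tested probe. All 12 member probes were tested. The RNA came from the heart septum of fetal sheep, 1 array per fetus and 27 arrays in all. The groups were cortisol at 140 d of gestation (n = 7), control at 140 d (n = 8), cortisol at 130 d (n = 6) and control at 130 d (n = 6). Cortisol was infused continuously into the ewe at 1 mg/kg/d, and the controls were fetuses of ewes given vehicle, so any exposure of the fetus came through the mother. The 140 d fetuses were collected between 139 and 144 d after an infusion of about 25 d, and the 130 d fetuses between 129 and 131 d after about 10 d. The labels give 2 different starts for the younger cohort, so its length of infusion is uncertain. Since the older fetuses were another cohort with a longer infusion, a difference between 140 d and 130 d may be one of age, cohort or infusion, and these cannot be told apart. The arrays lay on slides numbered 1 to 5. Slides 1 and 5 held arrays at 140 d only, so slide was partly tied to age as well. The 8 controls at 140 d came from 7 ewes, and the twins among them are not identified.

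MMPs are zinc-dependent enzymes that cut collagens and other proteins of the extracellular matrix, and TIMPs bind their catalytic site and block it. MMP2 and MMP9 are the gelatinases, which degrade denatured collagen and the collagen of basement membranes. MMP14 is anchored in the cell membrane and, together with a TIMP2 molecule, activates the secreted precursor of MMP2, so that TIMP2 both helps and inhibits the same protease. TIMP1 binds MMP9 readily, and TIMP3 is the inhibitor held in the matrix itself. In the heart these genes are known from the remodelling of the collagen network around growing or injured muscle. A microarray measures their transcripts and says nothing of protein, secretion or activation.

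The probes that carry the results are printed 5′ to 3′ in the orientation of the deposited files, because members with several probes did not give a single answer. MMP14 had 4 probes, and 2 of them share 29 bases, shown in capitals. The probe that represents the gene was designed from an expressed sequence tag (EST, a single read of a cDNA) and starts at base 703 of that tag. The others start at bases 366, 1017 and 1422 of the RefSeq mRNA.
MMP14, mRNA base 366: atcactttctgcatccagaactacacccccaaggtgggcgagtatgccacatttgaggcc
MMP14, mRNA base 1017: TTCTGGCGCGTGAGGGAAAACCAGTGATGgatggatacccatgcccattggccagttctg
MMP14, EST base 703: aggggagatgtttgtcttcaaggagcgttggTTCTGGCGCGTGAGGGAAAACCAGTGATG
MMP14, mRNA base 1422: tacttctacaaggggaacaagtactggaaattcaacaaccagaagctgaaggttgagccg
MMP2 had 3 probes on its RefSeq mRNA, of which the one at base 1603 represents the gene.
MMP2, mRNA base 192: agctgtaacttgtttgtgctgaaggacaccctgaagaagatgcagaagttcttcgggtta
MMP2, mRNA base 1275: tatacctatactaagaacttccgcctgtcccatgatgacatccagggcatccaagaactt
MMP2, mRNA base 1603: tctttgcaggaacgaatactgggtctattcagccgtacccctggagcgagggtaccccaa
MMP9 and TIMP3 had 1 probe each, so no second probe checks them.
MMP9, EST base 256: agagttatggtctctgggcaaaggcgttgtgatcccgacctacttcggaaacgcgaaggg
TIMP3, mRNA base 205: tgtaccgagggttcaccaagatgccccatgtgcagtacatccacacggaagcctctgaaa
TIMP1 had a pair of probes that share 59 of 60 bases and so count as 1 measurement (r = 0.99 over 27 arrays). TIMP2 had 1 probe, from an EST that the array's own annotation names as TIMP2, and its place in the transcript was not determined here.

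Levels are log2 intensities relative to each array's 75th percentile, so a value of 0 is the 75th percentile of that array. They compare arrays for 1 probe and do not rank genes against each other. The 75th percentile itself averaged 884 ± 149 intensity units in cortisol fetuses and 838 ± 59.3 in controls at 140 d, and 1093 ± 77.0 in cortisol fetuses and 1160 ± 101 in controls at 130 d (SD). Arrays at 140 d were thus dimmer than those at 130 d, and the part of this in the age comparisons was not tested. Between 77.0% and 87.0% of probes were well above background on an array. Of the heart muscle markers listed, only myoglobin (MB) had a named, tested probe, and it was far above background on all 27 arrays, with log2 levels between 7.51 and 8.83. A pair of arrays is described here, both singled out after their values were seen, and other arrays were also at the edge of their groups. Cortisol 130 d replicate 1 was the lowest of its group for MMP9, MMP14 and TIMP1. Cortisol 140 d replicate 2 was the lowest of its group for MMP9, TIMP1 and TIMP2. Control 130 d replicate 4 was the highest of its group for MMP2, TIMP1 and TIMP2. Replicate 4 of the cortisol group at 140 d had the lowest 75th percentile of all arrays (602) and the highest level of its group for 5 of the 6 members, all but MMP9. It also had the highest summed level of the fibroblast markers in its group, 337 against 175 on the next array, and of the myeloid markers, 15.0 against 4.94, with the lowest MB level, 182 against 284 on the next (all as multiples of the 75th percentile). Such sums follow the brightest probes of a list and do not weigh its genes evenly. Of the fibroblast markers, DCN ran from 4.87 to 6.13 (log2) in that group and COL1A2 from -3.49 to -1.38. Replicate 1 of the control group at 140 d had the lowest level of its group for MMP2, MMP14 and TIMP1. Its summed levels were the lowest of its group for the myeloid markers (0.63 against 0.91 on the next array), the fibroblast markers (80.6 against 96.3) and the endothelial markers (2.76 against 3.59). The part of these markers in the results was not tested. Each member gene's differences, with the probe that represents it, are given also without cortisol 140 d replicate 4 where it enters, apart from the bounds for MMP9, and without control 140 d replicate 1 where they moved most. In whole tissue, fewer cells of a type and less RNA per cell cannot be told apart.

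**Figure D1:**
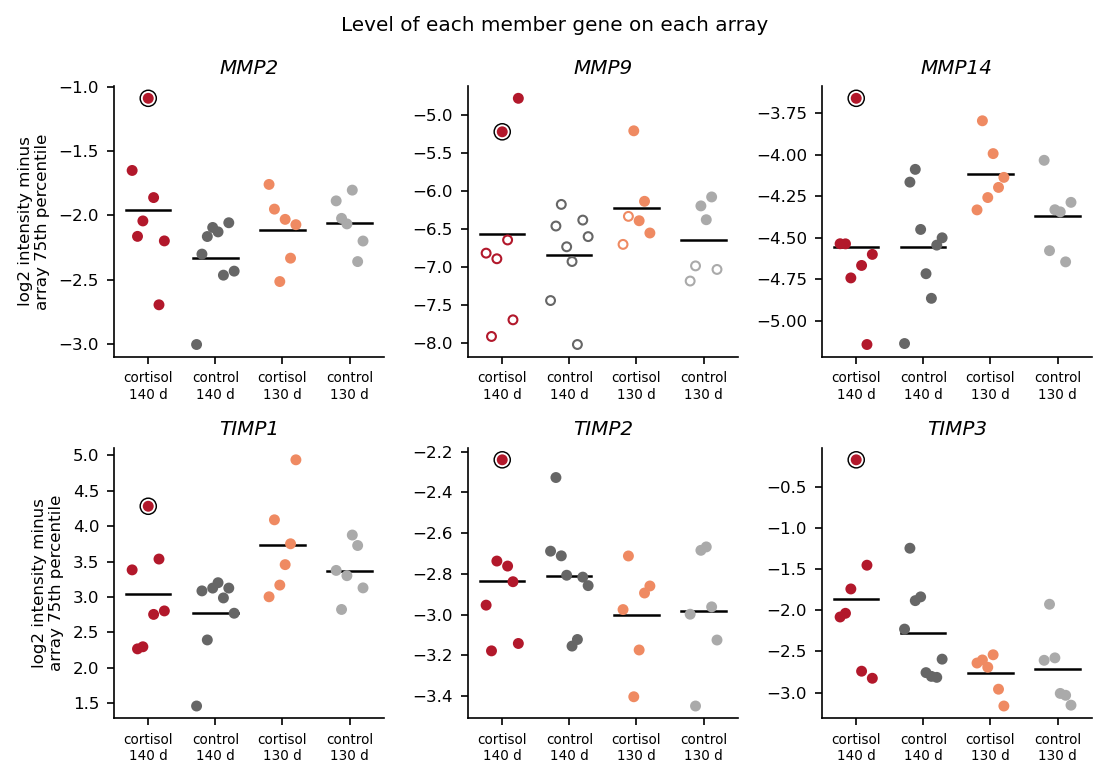
Level of each member gene (probe with the highest mean) on each of the 27 arrays, as log2 intensity minus the array's 75th percentile. Filled points were well above background and open points were not, bars are group means, and the ringed point is cortisol 140 d replicate 4. Every member's groups overlap, and the ringed array is the highest of its group in all panels but MMP9.

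The first comparison asks what cortisol given to the ewe did to these transcripts at each age. No member changed past the threshold at either age. By limma with Benjamini-Hochberg adjustment over the 12778 tested probes, 0 of 6 member genes were called at 140 d, where 0% of all tested probes were called, and 0 of 6 at 130 d, where 0% were called. At an unadjusted p under 0.05 there was 1 member gene and 727 probes at 140 d, and 0 member genes and 455 probes at 130 d. The ranges of cortisol and control arrays overlapped for 6 of 6 members at both ages, against 0.0157% of all tested probes with ranges apart at 140 d and 0.446% at 130 d. The smallest adjusted p among the members was 0.808 at 140 d and 1.00 at 130 d.

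Among the proteases, the member gene with an unadjusted p under 0.05 at 140 d was MMP2. Its level lay between -2.70 and -1.09 in cortisol fetuses at 140 d, with a median of -2.04, and between -3.01 and -2.06 in controls at 140 d, with a median of -2.23. In 4 of 7 cortisol fetuses the level was above the highest control, while the group ranges overlapped. The difference was 0.37 ± 0.18 (log2, SE; 95% interval 0.01 to 0.73; limma adjusted p = 0.808). It was 0.23 without cortisol 140 d replicate 4 and 0.28 without control 140 d replicate 1. Within the slides that held both groups it was 0.55, 0.65, -0.57 and 0.12 on slides 2 to 5. Slide 4 held 1 array of each group at 140 d, and slide 5 held 1 cortisol array and 3 controls. The other MMP2 probes gave 0.22 ± 0.15 and 0.15 ± 0.17. At 130 d the difference of MMP2 was -0.05 ± 0.20 (adjusted p = 1.00).

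For MMP14 the groups were nearly level at 140 d, where the difference was 0.00 ± 0.17, with a 95% interval from -0.34 to 0.34, and -0.15 without cortisol 140 d replicate 4. At 130 d it was 0.25 ± 0.19 (interval -0.13 to 0.63), and 6 of 6 cortisol fetuses were above the control median. These values are of the probe that represents the gene. The probes at bases 1017, 1422 and 366 gave -0.15 ± 0.26, 0.23 ± 0.29 and 0.06 ± 0.17 at 140 d, and 0.10 ± 0.29, -0.37 ± 0.32 and -0.11 ± 0.19 at 130 d. With the mean of the 4 probes the difference at 130 d turned to -0.03. MMP9 is described separately because it was dim.

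Among the inhibitors, TIMP1 differed by 0.28 ± 0.31 between cortisol and control at 140 d (adjusted p = 0.841) and by 0.36 ± 0.34 at 130 d. At 140 d it was 0.071 without cortisol 140 d replicate 4 and 0.090 without control 140 d replicate 1, and at 130 d it was 0.12 without cortisol 130 d replicate 6. TIMP3 differed by 0.41 ± 0.30 at 140 d (adjusted p = 0.808), and by 0.12 without cortisol 140 d replicate 4. At 130 d its difference was -0.05 ± 0.33. TIMP2 showed the narrowest intervals of the inhibitors, -0.03 ± 0.14 at 140 d (interval -0.32 to 0.27, and -0.12 without cortisol 140 d replicate 4) and -0.02 ± 0.16 at 130 d (interval -0.35 to 0.31). Those at 140 d were wider for TIMP1 (-0.35 to 0.91) and TIMP3 (-0.21 to 1.02).

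**Figure D2:**
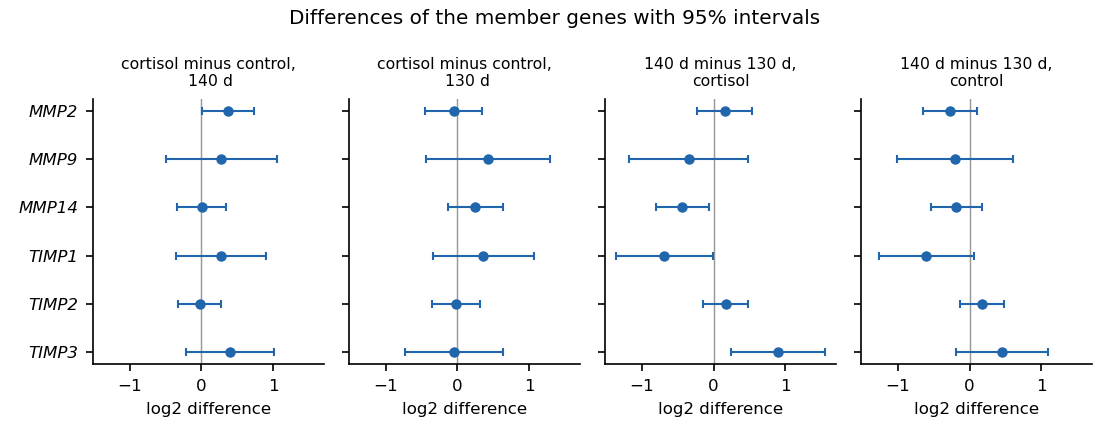
Log2 differences of the 6 member genes in 4 comparisons, as points with 95% intervals from the limma fit. In the cortisol arm TIMP3 lies at 0.90 and TIMP1 at -0.69, and the interval of MMP2 at 140 d starts at 0.01; no difference had an adjusted p under 0.05.

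The second comparison sets 140 d against 130 d within each arm, and here some differences were larger. In both arms TIMP3 had a positive difference and TIMP1 and MMP14 negative ones, and none of these passed the threshold with all arrays. With all arrays, 0 of 6 member genes were called in the cortisol arm, against 13.5% of all tested probes (4.94% higher and 8.52% lower at 140 d), and in the control arm 0 of 6, against 19.1% (9.77% higher and 9.35% lower). At an unadjusted p under 0.05 there were 3 member genes in the cortisol arm (MMP14, TIMP1 and TIMP3) and 0 in the control arm, with 3591 and 4324 probes. The ranges of the 2 ages overlapped for 6 of 6 members in each arm, against 4.7% of all tested probes with ranges apart in the cortisol arm and 5.72% in the control arm. The members' median difference was -0.10 in the cortisol arm and -0.19 in the control arm, beside -0.04 and -0.01 over all tested probes. With MMP9 at its bound, as described for that gene, the median in the control arm was -0.12.

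TIMP3 had the largest difference of the members in the cortisol arm, while in the control arm that of TIMP1 was larger. Its level lay between -2.82 and -0.17 in cortisol fetuses at 140 d, with a median of -2.04, and between -3.16 and -2.54 in cortisol fetuses at 130 d, with a median of -2.67. In 5 of 7 fetuses at 140 d the level was above every fetus at 130 d, and in the other two it was within the range of the younger group. The difference was 0.90 ± 0.32, or 1.87-fold, with an adjusted p of 0.0612. It was 0.62 without cortisol 140 d replicate 4 (adjusted p = 0.106), and it passed the threshold without replicate 5 (1.05, adjusted p = 0.0323) or replicate 7 (1.06, adjusted p = 0.0299). Scaling mattered as well. With the array median in place of the 75th percentile the difference was 1.01 (adjusted p = 0.0304). It was 1.01 with quantile normalization (adjusted p = 0.0364) and 1.00 with the values of the authors' deposited table (adjusted p = 0.0312). These scalings moved the members by similar amounts (0.11, 0.11 and 0.10, log2), so they are not separate checks. With normexp background correction the difference was 0.60 and did not pass the threshold. In the control arm TIMP3 lay between -2.81 and -1.25 at 140 d, with a median of -2.41, and between -3.15 and -1.93 at 130 d, with a median of -2.81. There 3 of 8 older fetuses were above every younger one, and the difference was 0.45 ± 0.31 (adjusted p = 0.331). The difference was positive on each of slides 2, 3 and 4, at 0.73, 1.16 and 1.61 in the cortisol arm and 0.53, 0.93 and 0.33 in the control arm. Slide 4 held 1 fetus of each arm at 140 d, so its values here and below rest on that fetus. With slide as a fixed block the TIMP3 difference was 1.02 in the cortisol arm and passed the threshold (adjusted p = 0.0244), and it was 0.72 in the control arm and did not (adjusted p = 0.0884).

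TIMP1 had differences of the opposite sign. Its level lay between 2.27 and 4.28 in cortisol fetuses at 140 d, with a median of 2.80, and between 3.00 and 4.94 in cortisol fetuses at 130 d, with a median of 3.60. In 4 of 7 older fetuses the level was below every younger one. The difference was -0.69 ± 0.33 (adjusted p = 0.170). Without cortisol 140 d replicate 4 it was -0.89 and passed the threshold (adjusted p = 0.0469). In the control arm the level lay between 1.46 and 3.20 at 140 d, with a median of 3.04, and between 2.82 and 3.88 at 130 d, with a median of 3.34. All 8 older controls were below the median of the younger ones, and the difference was -0.60 ± 0.32 (adjusted p = 0.189), or -0.42 without control 140 d replicate 1. Within slides 2, 3 and 4 it was -1.26, 0.21 and -0.81 in the cortisol arm, and -0.83, -0.83 and -0.23 in the control arm.

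TIMP2 differed by 0.17 ± 0.15 in the cortisol arm and by 0.17 ± 0.15 in the control arm (adjusted p = 0.518 and 0.452), and by 0.068 in the cortisol arm without cortisol 140 d replicate 4. Of the proteases, MMP2 differed by 0.15 ± 0.19 in the cortisol arm and by -0.27 ± 0.18 in the control arm (adjusted p = 0.643 and 0.305). It was 0.0081 in the cortisol arm without cortisol 140 d replicate 4, and -0.18 in the control arm without control 140 d replicate 1. All 8 controls at 140 d were below the median MMP2 level of the controls at 130 d, and 3 were below all of them. This comparison shares the controls at 140 d with that of cortisol and control at 140 d.

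MMP14 in the cortisol arm depended on 1 fetus. With the probe that represents the gene, the level lay between -5.14 and -3.66 at 140 d, with a median of -4.60, and between -4.33 and -3.80 at 130 d, with a median of -4.17. In 6 of 7 older fetuses MMP14 was below every younger fetus, and in the remaining one, replicate 4, it was above every younger fetus. The difference was -0.44 ± 0.18 with all arrays (adjusted p = 0.104). It was -0.58 without that array and passed the threshold (adjusted p = 0.00858). In the control arm it was -0.19 ± 0.17 (adjusted p = 0.475), or -0.11 without control 140 d replicate 1, and it turned to 0.29 with normexp. Within slides 2, 3 and 4 the cortisol arm gave -0.57, -0.04 and -0.98, and the control arm gave -0.35, 0.07 and -0.25. Replicate 4 was on slide 3.

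The other MMP14 probes did not all follow it. The probe at base 1017, which shares 29 bases with it, gave -0.78 ± 0.28 in the cortisol arm (adjusted p = 0.0586, and 0.0396, 0.0488 and 0.0198 without cortisol 140 d replicates 1, 3 and 4) and -0.54 ± 0.27 in the control arm (adjusted p = 0.160). The probe at base 1422 gave -0.26 ± 0.31 in the cortisol arm and -0.86 ± 0.30 in the control arm, and the second value was the only one of the 12 member probes past the threshold (adjusted p = 0.0461). That probe was dim: it was well above background in 1 of 8 controls at 140 d and 6 of 6 controls at 130 d. Its level lay between -7.58 and -5.06 in controls at 140 d, with a median of -6.40, and between -5.89 and -5.11 in controls at 130 d, with a median of -5.74. In 7 of 8 older controls it was below every younger one. The call held in 2 of 14 fits that left out 1 array. Under another background correction (normexp) the difference turned to 0.31 (adjusted p = 0.664). The probe at base 366, well above background on 27 of 27 arrays, gave 0.23 ± 0.18 in the cortisol arm and 0.06 ± 0.18 in the control arm (adjusted p = 0.445 and 0.849). Across the 27 arrays it correlated with the representing probe at r = 0.21, and the overlapping pair at r = 0.49. A statement on MMP14 with age therefore holds for some of its probes only.

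**Figure D3:**
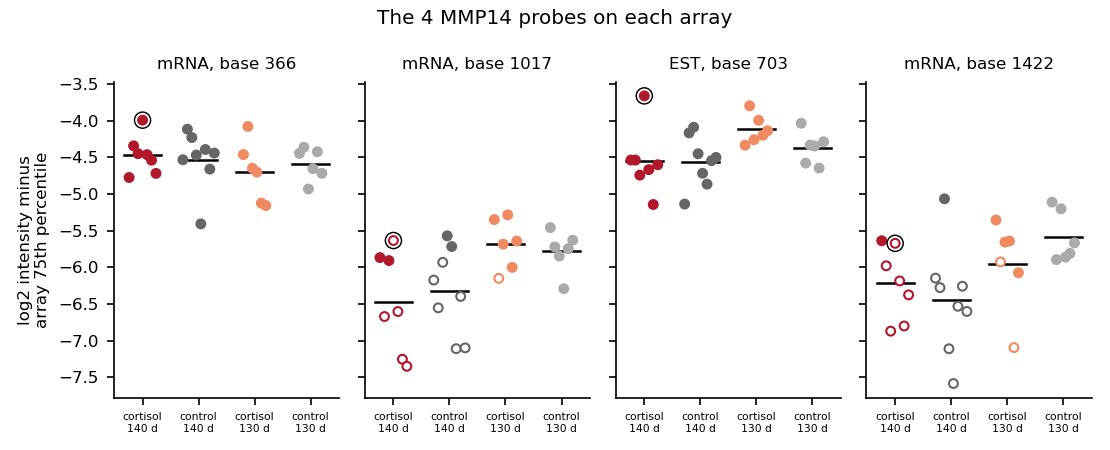
The 4 MMP14 probes on each array (log2 intensity minus the array's 75th percentile). The mRNA probes are ordered by their start, and the EST probe is drawn after the one at base 1017, which it overlaps. Filled points were well above background, bars are group means, and the ringed point is cortisol 140 d replicate 4; the probe at base 366 stays near -4.5 in all groups, while those at bases 1017 and 1422 are dim and mostly open at 140 d.

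**Figure D4:**
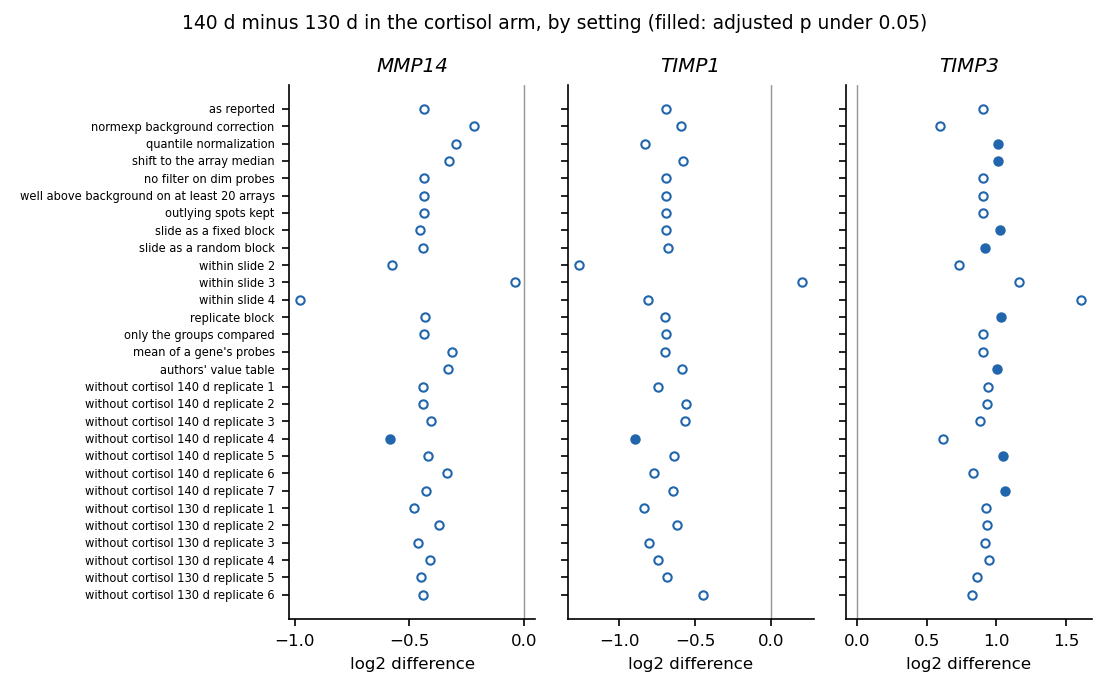
Log2 difference of 140 d minus 130 d in the cortisol arm for MMP14, TIMP1 and TIMP3 under each processing setting and with each array of the arm left out, filled where the limma adjusted p was under 0.05. TIMP3 was positive and MMP14 negative in every row, TIMP1 was positive only within slide 3, and leaving out cortisol 140 d replicate 4 is the one row where MMP14 and TIMP1 are filled and TIMP3 is at 0.62.

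MMP9, a gelatinase stored in neutrophils and made by activated macrophages, was close to the detection limit. Its probe was well above background in 2 of 7 cortisol fetuses and 0 of 8 controls at 140 d, and in 4 of 6 cortisol fetuses and 3 of 6 controls at 130 d. The level lay between -7.91 and -4.77 in cortisol fetuses at 140 d, with a median of -6.82, and between -8.02 and -6.17 in controls at 140 d, with a median of -6.66. At 130 d it lay between -6.70 and -5.20 in cortisol fetuses, with a median of -6.36, and between -7.18 and -6.07 in controls, with a median of -6.68. Since no control at 140 d was measurable, that group gives only an upper bound. The cortisol mean at 140 d was 1.09-fold that bound, with 2 of 7 arrays well above background (limma adjusted p of the difference 0.870). The mean of controls at 130 d was 1.04-fold the bound, with 3 of 6 well above background (adjusted p = 0.759). Neither is a least fold change, because both means include signals that were not well above background. At 140 d the cortisol median was below that of the controls, and the fitted difference turned to -0.02 without cortisol 140 d replicate 7. Here the bound takes, per array, the higher of the probe's own signal and the lowest signal of any probe well above background. The cortisol arm differed by -0.35 ± 0.41 between 140 d and 130 d (adjusted p = 0.624), and by -0.57 without cortisol 140 d replicate 4. At 130 d cortisol differed from control by 0.42 ± 0.42 (adjusted p = 1.00), and by 0.22 without cortisol 130 d replicate 3.

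The cortisol effect was also compared between the ages directly. The difference of the effects, 140 d minus 130 d, was called for 0 of 6 member genes and 0% of all tested probes by limma (0 member genes and 743 probes at an unadjusted p under 0.05). It was 0.43 ± 0.26 for MMP2, -0.25 ± 0.25 for MMP14, -0.09 ± 0.46 for TIMP1, 0.00 ± 0.22 for TIMP2 and 0.45 ± 0.45 for TIMP3, and the smallest adjusted p was 0.962. No value is given for MMP9, because the controls at 140 d give only a bound. Without cortisol 140 d replicate 4 the values were 0.28 for MMP2, -0.40 for MMP14, -0.29 for TIMP1, -0.10 for TIMP2 and 0.17 for TIMP3. Without control 140 d replicate 1 they were 0.33 for MMP2, -0.33 for MMP14 and -0.27 for TIMP1. With the mean of its 4 probes MMP14 turned to 0.068.

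The balance of proteases and inhibitors was taken within each array, as the mean log2 level of the 3 MMPs minus that of the 3 TIMPs, with the mean of the controls at 130 d set to 0. The scaling of the array cancels in it. Probes differ in brightness for the same amount of RNA, so only differences between arrays can be read, and since the members were chosen with results known it is given without a p. The balance averaged -0.23 ± 0.63 in cortisol fetuses at 140 d (SD, n = 7), -0.23 ± 0.29 in controls at 140 d (n = 8), 0.11 ± 0.29 in cortisol fetuses at 130 d (n = 6) and 0.00 ± 0.08 in controls at 130 d (n = 6). The cortisol fetuses at 140 d ran from -1.35 (replicate 6) to 0.78 (replicate 7), with a median of -0.25. The controls at 140 d ran from -0.57 to 0.17, with a median of -0.22. The cortisol fetuses at 130 d ran from -0.31 to 0.56, with a median of 0.12. The controls at 130 d stayed between -0.10 and 0.12, with a median of -0.01.

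At 140 d cortisol and control differed by 0.00 ± 0.26 (SE) in this balance, less than the SD of either group, and by 0.022 without cortisol 140 d replicate 4. At 130 d they differed by 0.11 ± 0.12, less than the SD of the cortisol group and more than that of the controls. There 3 of 6 cortisol fetuses were above the highest control and 1 was below the lowest. The older groups lay lower than the younger ones, by -0.34 ± 0.27 in the cortisol arm and -0.23 ± 0.11 in the control arm, and 5 of 8 older controls were below every younger control. The ranges of the ages overlapped in both arms. Leaving out cortisol 140 d replicate 4 gave -0.31 in the cortisol arm, and leaving out replicate 7 or replicate 6 gave -0.50 or -0.15. Within slides 2, 3 and 4 the values were -0.35, -0.51 and -1.22 in the cortisol arm and -0.44, -0.11 and -0.16 in the control arm. With normexp background correction the control arm turned to 0.18. The balance includes MMP9, which no control at 140 d had well above background. With MMP9 left out, a choice made after its dim signal was seen, the differences with age were -0.27 ± 0.20 in the cortisol arm and -0.24 ± 0.12 in the control arm. Then 3 of 8 older controls were below every younger control. Cortisol minus control at 130 d was 0.0010 ± 0.12, with 1 of 6 cortisol fetuses above the highest control and 0 below the lowest. The SD of the controls at 130 d was 0.21, as was that of the cortisol fetuses, so the separation and the narrow control range at 130 d depended on MMP9.

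Single pairs of a protease and an inhibitor behaved differently. MMP14 minus TIMP2, the pair that meets at the cell surface, averaged -0.33 ± 0.36 in cortisol fetuses at 140 d, -0.36 ± 0.31 in controls at 140 d, 0.27 ± 0.23 in cortisol fetuses at 130 d and 0.00 ± 0.31 in controls at 130 d (SD). All 7 older fetuses of the cortisol arm were below all 6 younger ones: the older ran from -0.91 to 0.0303 and the younger from 0.0319 to 0.57, so the gap between the ranges was narrow. The share of all pairs of probes with ranges apart was not computed, so this separation is a description only. The difference was -0.60 ± 0.17 (SE) in the cortisol arm and -0.36 ± 0.17 in the control arm, where the ranges overlapped. It was -0.65 in the cortisol arm without cortisol 140 d replicate 4, and -0.26 in the control arm without control 140 d replicate 1. With normexp background correction these differences shrank to -0.23 and -0.03. The pair rests on 1 MMP14 probe that the others did not all follow: with the mean of the 4 probes the differences with age were -0.48 and -0.55. Cortisol minus control at 130 d was 0.27 ± 0.16 in this pair, and it turned to -0.0093 with that mean. MMP2 minus TIMP2 was lower in controls at 140 d, at -0.45 ± 0.43, than in the other groups, which averaged -0.05 ± 0.38 in cortisol fetuses at 140 d, -0.03 ± 0.25 in cortisol fetuses at 130 d and 0.00 ± 0.31 in controls at 130 d. Cortisol and control fetuses at 140 d thus differed by 0.40 ± 0.21 (SE) in this pair, with overlapping ranges, and by 1.00 on slide 2 and -0.88 on slide 4. This was 0.35 without cortisol 140 d replicate 4 and 0.29 without control 140 d replicate 1. MMP9 minus TIMP1 averaged 0.40 ± 1.13 in cortisol fetuses at 140 d, 0.06 ± 1.02 in cortisol fetuses at 130 d and 0.00 ± 0.38 in controls at 130 d (SD), and no value is given for controls at 140 d, where MMP9 has only a bound. The difference with age in the cortisol arm was 0.34 ± 0.60 (SE) and that between cortisol and control at 130 d was 0.06 ± 0.44, each less than the SD of either group.

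The inhibitors were also set against each other. TIMP3 minus TIMP1, a pair chosen after its values were seen and so given as a description, averaged 1.18 ± 0.65 in cortisol fetuses at 140 d, 1.05 ± 0.86 in controls at 140 d, -0.41 ± 0.90 in cortisol fetuses at 130 d and 0.00 ± 0.77 in controls at 130 d (SD). All 7 older fetuses of the cortisol arm, from 0.46 to 2.05, were above all 6 younger ones, from -2.01 to 0.45, and the difference was 1.59 ± 0.44 (SE), or 1.51 without replicate 4. The gap was narrow here too, and the share of such separations over all pairs of probes was not computed. In the control arm the difference was 1.05 ± 0.44, or 0.86 without control 140 d replicate 1, with 8 of 8 older fetuses above the mean of the younger ones and overlapping ranges.

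**Figure D5:**
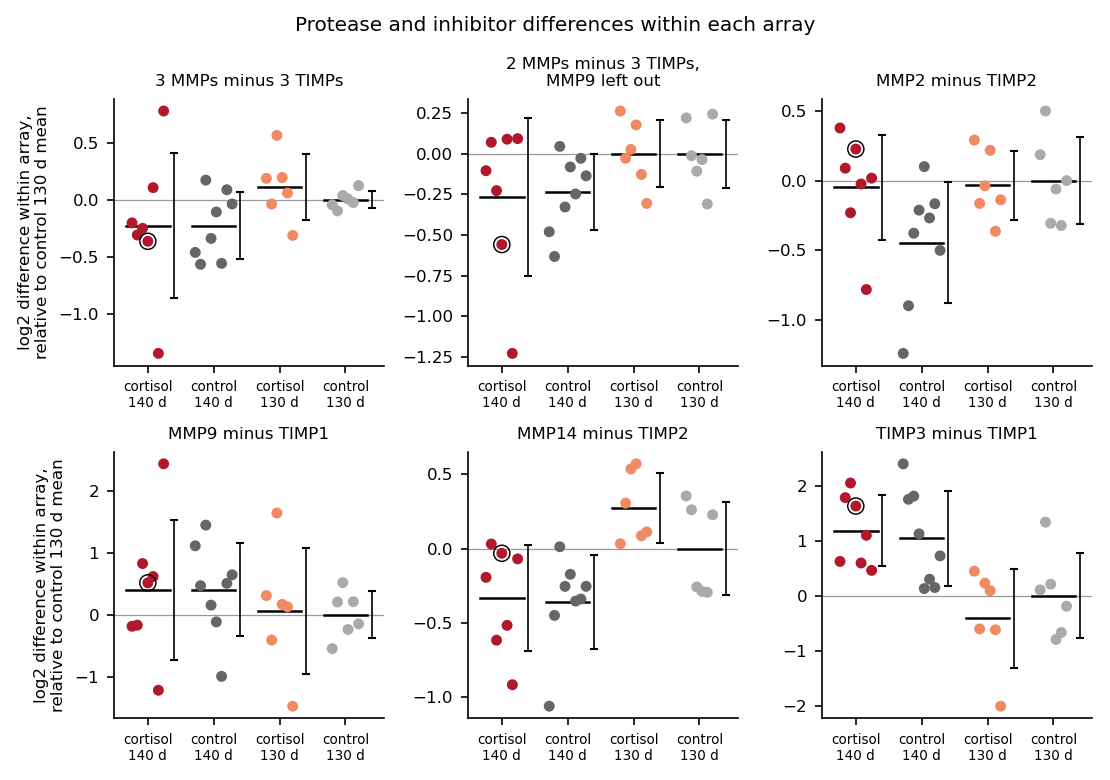
Differences between members within each array (log2, with the mean of controls at 130 d at 0): points are arrays, thick bars group means, error bars SD, and the ringed point is cortisol 140 d replicate 4. MMP14 minus TIMP2 and TIMP3 minus TIMP1 are the panels where the ranges of the cortisol groups at 140 d and 130 d do not meet. The controls at 130 d are the tightest group of the 3 MMPs minus 3 TIMPs panel (SD 0.08), but not with MMP9 left out (SD 0.21, as in cortisol fetuses at 130 d). In panels with MMP9 the controls at 140 d hold MMP9 signals that were not well above background.

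Within groups, the members varied together from fetus to fetus to different degrees. After the group means were removed, MMP2 and MMP14 had the highest of the 15 pairwise correlations, with Pearson's r = 0.74 over 27 arrays (permutation p = 3e-05, adjusted over 15 pairs 0.00045) and Spearman's rho = 0.48 (permutation p = 0.0118, adjusted 0.178). Without the 2 arrays farthest from the median of MMP2, r was 0.51. It was not the only related pair: every r was positive, the lowest being 0.11 (MMP9 and TIMP3). MMP14 with TIMP2 (0.49), TIMP3 (0.48) and MMP9 (0.46), TIMP2 with TIMP3 (0.45) and MMP2 with TIMP1 (0.45) each had an adjusted permutation p of 0.047. By Spearman's rho the adjusted permutation p of each of these was 0.235. TIMP1 and TIMP3 showed little relation within groups (r = 0.15, adjusted permutation p = 0.488; rho = -0.04, adjusted p = 0.905). The pairs share an array and its scaling, which can move all members of an array together.

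Among the other named genes, those with the pattern most like each member were found by Pearson's r over the 27 arrays, as a description. The most alike of all was VIM, the intermediate filament protein of mesenchymal cells, with TIMP1 (r = 0.89, and 0.86 without the 2 farthest arrays). INHBA, a subunit of activins, followed at 0.83 and IL18, an inflammatory cytokine, at 0.79. TIMP3 was most like CCND3, a cyclin of the G1 phase (0.84, and 0.64 without the 2 farthest arrays), DKC1, a protein of telomerase and small nucleolar RNA particles (0.83), and IL13RA1, a receptor subunit for interleukin 13 (0.81). MMP14 was most like CREM, a cyclic AMP-responsive transcription factor (0.73), GRIA1 (0.72) and NRP2 (0.71). MMP2 was most like COL1A2, a chain of type I collagen (0.72, and 0.71 without the 2 farthest arrays), BMP4 (0.72) and PTGS2 (0.70). BMP4 and PTGS2 were at 0.41 and 0.42 without those arrays. TIMP2 was most like CD9 (0.63), LIPA (0.63) and EGR1 (0.61), and MMP9 most like LTF, the lactoferrin of neutrophil granules (0.58), BGLAP (0.58) and SFXN1 (0.52). Without the 2 arrays farthest for TIMP2, CD9 was at 0.38, LIPA at 0.60 and EGR1 at 0.42. Without those farthest for MMP9, LTF was at 0.72, BGLAP at 0.33 and SFXN1 at 0.60. The MMP9 probe was well above background on only 9 of the 27 arrays.

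Other genes of the pathway were thin on this array. Of 18 other MMP and TIMP genes listed, 2 were tested, MMP7 and MMP13. In the control arm 1 of them was higher at 140 d and 0 lower, beside 9.77% and 9.35% of all tested probes. That gene was MMP13, a collagenase, which lay between -5.40 and -4.28 in controls at 140 d, with a median of -5.15, and between -6.08 and -5.16 in controls at 130 d, with a median of -5.77. The difference was 0.67 ± 0.22 (adjusted p = 0.0295). In the cortisol arm MMP13 differed by -0.29 ± 0.22 (adjusted p = 0.420), and cortisol minus control was -0.53 ± 0.21 at 140 d and 0.43 ± 0.23 at 130 d. The difference of these effects was -0.96 ± 0.31 and did not pass the threshold (adjusted p = 0.437). MMP7, or matrilysin, was well above background on 8 of 27 arrays and differed by 0.72 ± 0.30 with age in the cortisol arm (adjusted p = 0.113) and by 0.25 ± 0.29 in the control arm. The MMP1 probes were well above background on 0 and 1 of 27 arrays and were not tested.

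Of 31 other matrix proteases and inhibitors, 6 were tested. In the control arm 0 were higher and 1 lower at 140 d, beside 9.77% and 9.35% of all tested probes. The lower one was CTSS, or cathepsin S, an elastase of macrophages, at -1.37 ± 0.30 (adjusted p = 0.0033), and 0 passed in the cortisol arm. PLAU, the urokinase that starts the plasmin cascade, differed by -0.37 ± 0.23 in the cortisol arm and -0.52 ± 0.22 in the control arm (adjusted p = 0.295 and 0.0912). Of 35 matrix substrates 6 were tested, with a median difference of -0.18 in the cortisol arm, where 0 passed, and -0.40 in the control arm, where 0 rose and 1 fell. The gene that fell was COL3A1, the fibrillar collagen III, at -0.59 ± 0.21 (adjusted p = 0.0495). With 19.1% of all tested probes called in that arm, these single calls are not read as results about the lists.

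Of 21 regulators of MMP and TIMP transcription 12 were tested. In the cortisol arm 1 was higher and 2 lower at 140 d, beside 4.94% and 8.52% of all tested probes. In the control arm 0 were higher and 4 lower, beside 9.77% and 9.35%. TNF, a cytokine that induces several MMPs, fell in both arms, at -1.33 ± 0.36 in the cortisol arm (adjusted p = 0.0163) and -1.50 ± 0.35 in the control arm (adjusted p = 0.00501). IL1A fell in both arms too, but it was well above background in 0 fetuses at 140 d, which leaves only a bound. Its mean at 130 d was 2.65-fold that bound in the cortisol arm (limma adjusted p = 0.00382) and 2.27-fold in the control arm (adjusted p = 0.00303). In each arm 5 of 6 fetuses at 130 d were well above background. NFKBIA, the inhibitor of NF-kappa B, was higher at 140 d in the cortisol arm, at 1.30 ± 0.30 (adjusted p = 0.0049). TGFB1 and TGFB2, growth factors that drive collagen synthesis, were lower at 140 d in the control arm, at -0.74 ± 0.21 (adjusted p = 0.0167) and -0.98 ± 0.25 (adjusted p = 0.00787). No gene of these lists passed in either cortisol against control comparison, where 0% of all tested probes did.

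Some markers of other cell types also passed the test with age. Of all tested probes 13.5% were called in the cortisol arm and 19.1% in the control arm, so counts in these short lists are not read as results about them. Of the 8 myeloid and neutrophil markers tested, 0 were higher and 4 lower in the control arm at 140 d (CATHL1B, FCER1G, ITGB2 and LYZ), and 0 passed in the cortisol arm. Their summed level, which follows the brightest probes of the list, ran from 1.05 to 15.0 in cortisol fetuses and from 0.63 to 3.52 in controls at 140 d, and from 1.59 to 8.18 in cortisol fetuses and from 2.05 to 9.59 in controls at 130 d, as multiples of the 75th percentile. Of 5 fibroblast markers, 1 was lower at 140 d in the control arm (COL3A1 again) and 0 passed in the cortisol arm, with median differences of -0.46 in the cortisol arm and -0.51 in the control arm. Their summed level ran from 111 to 337 in cortisol fetuses and from 80.6 to 183 in controls at 140 d, and from 185 to 234 in cortisol fetuses and from 142 to 222 in controls at 130 d. VIM, the gene most like TIMP1, is among these markers. MB was 0.48 ± 0.15 higher at 140 d in the control arm (adjusted p = 0.0282). Of 5 adipocyte markers, 2 were higher and 0 lower in the cortisol arm and 3 were higher and 0 lower in the control arm. Both red blood cell markers tested were lower at 140 d in the control arm. Of 7 endothelial and 2 smooth muscle markers, 0 passed in any comparison. The part of these cell types in the values of TIMP1, TIMP3, MMP14 and MMP9 was not tested.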

How the data were processed

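Septal RNA was labelled with Cy3 and hybridised to 1-colour Agilent arrays, per the labels' protocols. Spot intensity in the deposited scanner files was already corrected for background and spatial trend, and the arrays had not been scaled to each other, per the file headers. The submitters' processing notes name Agilent Feature Extraction 10.1.1.1. A deposited table of the authors' log2 values equals log2 of those intensities minus 1 constant per array of unstated origin (largest residual SD 2.06e-06, column medians 0.09 to 0.12), and served as an alternative.

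Each array's log2 intensity was set relative to its 75th percentile over non-control spots. Spots with an outlier flag were dropped before the spots of a probe were averaged. A probe was tested if it was well above background on 6 or more arrays, which left 12778 probes. A gene was represented by its tested probe with the highest mean. All 27 arrays and 4 group means entered 1 fit with lmFit and eBayes of limma 3.58.1 (R 4.3.3), with adjusted p under 0.05 over all tested probes as the threshold. The number of arrays limits the precision. In data simulated for 140 d against 130 d in controls over 12778 probes, 17 of 50 probes raised by 0.5 (log2), 41 of 50 raised by 1, 39 of 50 lowered by 1 and 49 of 50 raised by 2 were called. Only these probes were changed there, with independent normal noise, whereas 19.1% of tested probes were called in the real comparison. The adjustment depends on that share, so these rates do not describe detection in the real comparisons.

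Every member was named in each comparison, along with up to 4 called genes of each list of matrix, regulator and cell marker genes, and the 3 genes most like each member. The members and lists were chosen with earlier results of these data known. Genes were named from the files and RefSeq's sheep table (ARS-UI_Ramb_v3.0), and no genome positions were used. Alternatives changed background correction, scaling, filter, outlying spots, slide, replicate number, probes of a gene and each array in turn.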

Additional observations from a re-analysis of the deposited data

Results flagged for a closer look

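Of 72 sets of values checked, 6 held an array far from the rest of its group by Dixon's test, and chance gives about 1 in 20. Of these, 4 concern control 140 d replicate 1. Its MMP2 level was -3.01 (the other controls at 140 d ran from -2.47 to -2.06), its TIMP1 level 1.46 with 1 probe (others 2.39 to 3.20) and 1.35 with the overlapping probe (others 2.38 to 3.13), and its MMP14 minus TIMP2 value -1.06 (others -0.45 to 0.01). In cortisol 140 d replicate 4, the MMP14 level with the representing probe was -3.66 (others -5.14 to -4.54). In control 140 d replicate 5, the MMP14 probe at base 366 was at -5.41 (others -4.66 to -4.12). No member's cortisol effect differed between the ages past the threshold.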

How the results depend on the processing

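No member gene was called in either cortisol against control comparison, in the control arm with age or in the difference between ages under any alternative run (16 for cortisol against control at 140 d and 15 for each of the others) or with any single array left out. In the cortisol arm with age the count of called member genes was 0 as reported and 1, TIMP3 (higher at 140 d), with quantile normalization, the array median, slide as a fixed or random block, and the authors' value table. Leaving out 1 array gave counts from 0 to 2. These were 2 (MMP14 and TIMP1) without cortisol 140 d replicate 4 and 1 (TIMP3) without replicate 5 or replicate 7. The cause was not tested. Relative to the 75th percentile, the array median moved members in that arm by 0.11 and the authors' table by 0.10 (log2). Over all tested probes the array median gave 1204 higher and 650 lower in the cortisol arm and 2011 and 831 in the control arm, against 631 and 1089 and 1248 and 1195 as reported. Normexp called 339 and 536 probes in these arms. Within single slides, which hold few arrays, between 0 and 29 were called. Of 1839 member probe values under alternatives, 166 changed sign, and 1 of these concerned a called value, the MMP14 probe at base 1422 in the control arm (0.31 with normexp).

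Replicate numbers were not taken to pair the arrays, under a rule that asked every same-numbered pair to correlate above 0.1. A rule this strict cannot show that the numbers carry no pairing. Number also followed slide at 130 d, where replicates 1 and 2 were on slide 2, 3 and 4 on slide 3, and 5 and 6 on slide 4. Same-numbered arrays of different groups correlated between -0.166 and 0.361 in their deviations (median 0.05), with 13 of 37 over 0.1, and different-numbered ones between -0.334 and 0.323 (median -0.02), with 35 of 235 over 0.1. Arrays on the same slide had a median correlation of 0.06 over 64 pairs, against -0.03 over 208 pairs on different slides. With the replicate block the cortisol arm with age had 1 called member gene, TIMP3 at 1.03 (adjusted p = 0.0159).

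Of 117 balance values of 3 MMPs minus 3 TIMPs under alternatives, 8 moved by more than the spread within groups. In the control arm with age these were 0.18 with normexp and -0.44 within slide 2. For cortisol against control at 130 d they were 0.36 within slide 3 and -0.18 within slide 4. For cortisol against control at 140 d they were -1.24 within slide 4 and 0.95 within slide 5. Within slide 4 the cortisol arm with age gave -1.22 and the difference between ages -1.06. Slide 4 held 1 array of each group at 140 d, and slide 5 held 1 cortisol array at 140 d. Signal over background limits MMP9 and the MMP14 probes at bases 1017 and 1422, which were well above background on 9, 15 and 12 of 27 arrays.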
